A study of Homo sapiens with 4 samples.

Results

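ZBTB, ZSCAN and ZKSCAN genes encode zinc finger transcription factors, and 66 of them were measured among 18132 genes on arrays of breast cancer cells with and without an shRNA against ELK3. The members are all symbols made of ZBTB, ZSCAN or ZKSCAN and a number with an optional final letter, without antisense genes or pseudogenes. They comprise 40 ZBTB, 19 ZSCAN and 7 ZKSCAN genes. A further 3 coding genes of these forms were not analysed here (ZBTB9, ZSCAN21 and ZSCAN5C). RNA came from Hs578T, a human breast cancer line with mesenchymal features, on 4 Affymetrix PrimeView arrays with 1 RNA per array. The ELK3 knockdown group, 2 arrays numbered 1 and 5, came from cells made stable with lentiviral shRNA against ELK3, an ETS family transcription factor. The sh control group, 2 arrays numbered 1 and 2, came from cells labelled as its shRNA control. Both groups grew in the same serum and insulin medium, and what the array numbers stand for is not said in the labels. What the p-values measure is thus the spread among these 4 arrays, which may be technical.

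The families share arrays of C2H2 zinc fingers that read DNA and differ in the domain at the other end of the protein. ZBTB proteins carry a BTB (POZ) domain, through which they pair with each other and bring corepressors such as the NCOR, BCOR and SIN3 complexes to DNA. ZSCAN proteins carry a SCAN domain, which mediates dimers between members of that family, and ZKSCAN proteins carry a KRAB domain besides it, the domain that recruits the corepressor TRIM28. Several ZBTB proteins direct lymphocyte development, some bind methylated CpG sites, and others act on the cell cycle or at telomeres. For many of the other members little is known.

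Signals are RMA values on the log2 scale, in which the authors had already normalized the arrays and summarised the probes of each probe set. A gene was read from its brightest probe set, and a gene passed when the Benjamini-Hochberg adjusted p of limma over all genes was under 0.05. ELK3 itself was at 8.09 and 7.92 in the knockdown arrays, against 10.05 and 10.07 in the control arrays, which is 4.16-fold lower (log2 change -2.06, SE 0.09, adjusted p = 2.57e-06). Across all probe sets, Pearson's r was 0.996 within the knockdown pair and 0.998 within the control pair, and 0.902 to 0.904 for a knockdown array set against a control array. All 15 mesenchymal or basal markers examined were lower in the knockdown arrays. Their summed linear signal was 19907 and 21323 in the knockdown arrays, against 140645 and 134369 in the control arrays. COL1A2, a collagen gene, had signals of 4.98 and 5.62 in the knockdown arrays and of 13.77 and 13.56 in the control arrays, so that a defining marker of the labelled line was near the dim end in the knockdown arrays. Of 14 epithelial or luminal markers, 5 were higher, led by KRT19 and KRT8, with a summed signal of 18810 and 15313 in the knockdown arrays, against 2676 and 2811 in the control arrays. CDH1 and EPCAM lay between 3.67 and 4.50 on all 4 arrays. None of the 7 leukocyte markers passed (limma, also 0 at an unadjusted p under 0.05), with summed signals of 298 and 304 in the knockdown arrays, against 325 and 332 in the control arrays. Of 5 endothelial markers 2 were lower and of 7 neural markers 1 was higher. The part of these differences in the results below was not tested. The labels give Hs578T for both groups, and whether the arrays of both groups hold RNA of the same line was not tested, which bears on every difference given here. In RNA from many cells, fewer cells with a transcript and less of it per cell cannot be told apart.

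The zinc finger genes changed in both directions, with more higher than lower in the knockdown arrays. Of the 66 members, 29 passed as higher (43.9%) and 11 as lower (16.7%), and 26 did not pass. Over all 18132 genes, 29.5% passed as higher and 21.3% as lower, so the share of lower members was near that of all genes. In an alternative that left out dim genes, 18 of 40 members and 4474 of 10388 genes passed as higher, which are similar shares. The median log2 change was 0.22 over the members and -0.010 over all genes. More than 2-fold changes were measured for 9 members that rose and 4 that fell, beside 10.2% and 7.51% of all genes. The groups did not overlap for 51 members (77.3%), 35 higher and 16 lower, where 75.3% of all genes were apart, 38.5% higher and 36.8% lower. By the selection of the series' design text, a fold over 1.5 with an unadjusted p under 0.05, 21 members were higher and 8 lower, beside 19.1% and 12.6% of all genes. All members were tested, since no filter on dim genes was used, and the 26 that did not pass lay between -0.24 and 0.27 on the log2 scale. In 22 members both group means were below the median of all values (6.78), and 8 of these passed, 7 higher and 1 lower. The share among all genes this dim is not given here, so the count has no background beside it.

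**Figure D1:**
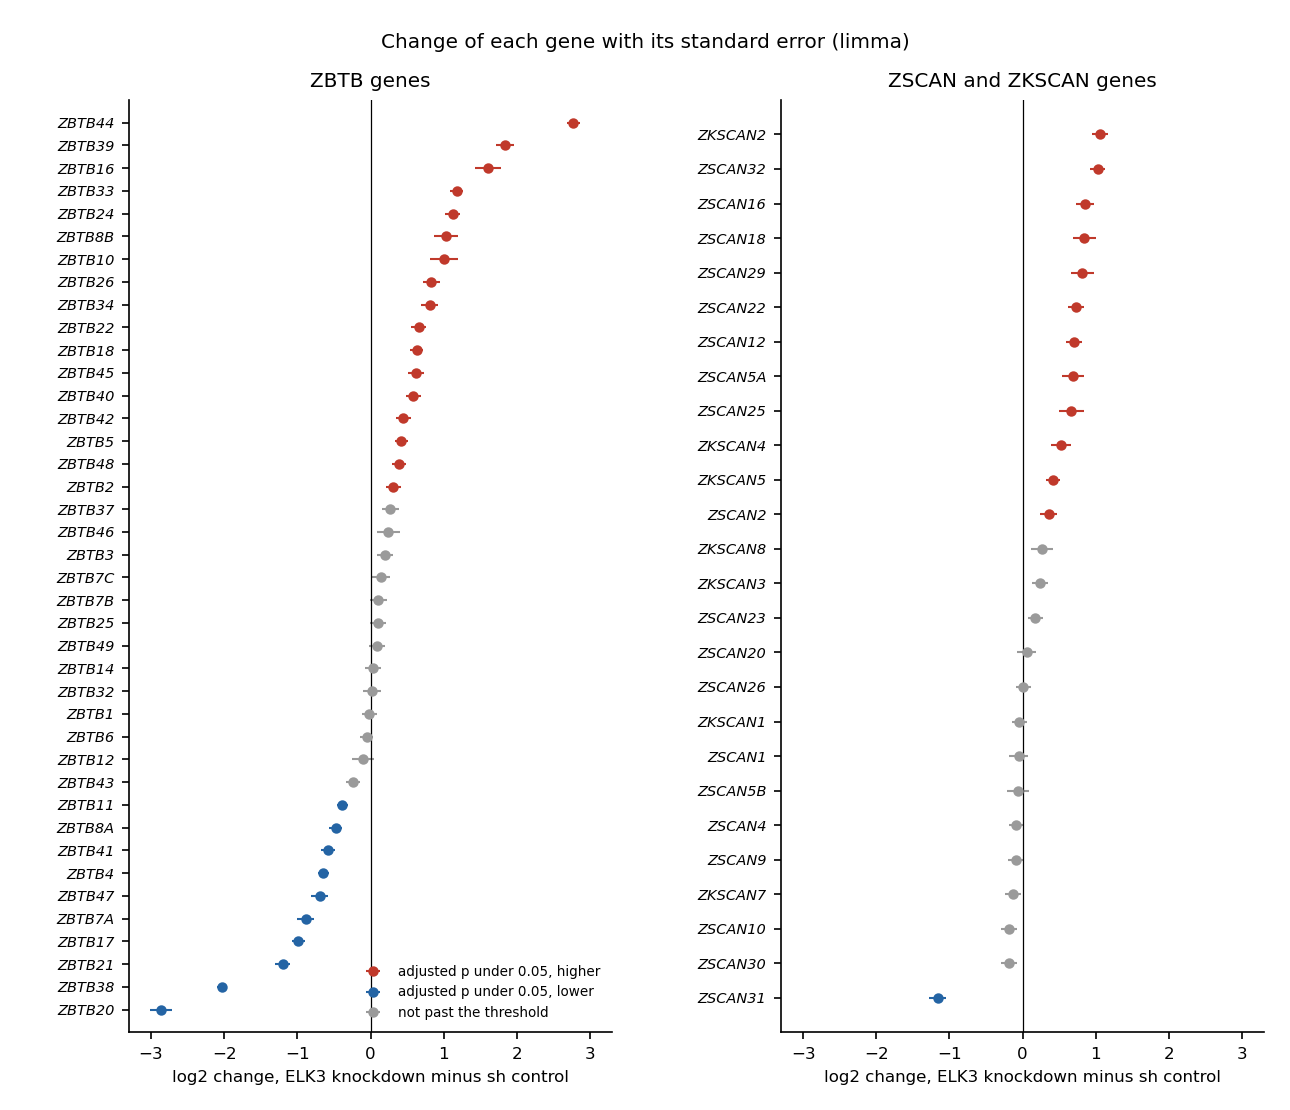
Each point is the log2 change of 1 gene (ELK3 knockdown minus sh control, horizontal axis) with its standard error from limma, with the 40 ZBTB genes on the left and the 26 ZSCAN and ZKSCAN genes on the right. Red points passed as higher, blue points as lower and grey points did not pass. ZBTB44 at 2.77 and ZBTB20 at -2.86 mark the ends, and ZSCAN31 is the lone blue point on the right.

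Promoter sequences from RefSeq (GRCh38.p14) were at hand for 57 of the 66 members. They are shown for members past the threshold whose gene has a single promoter entry: the largest rise and the largest fall, and the largest changes each way among those with the core of an ETS binding site before the start. ELK3 is an ETS factor, and the core searched was CCGGAAG on both strands. Each line gives the 250 bases before the gene's start, 5′ to 3′ on the gene's strand, and capitals mark the core, which reads CTTCCGG where it lies on the other strand. The ZBTB44 window is chr11:130314918-130315167 (minus strand), that of ZBTB21 chr21:42010361-42010610 (minus strand), that of ZBTB33 chrX:120250562-120250811 (plus strand) and that of ZBTB24 chr6:109483220-109483469 (minus strand). Those of ZBTB4 and ZBTB11 are chr17:7484250-7484499 and chr3:101677133-101677382 (both minus strand).
ZBTB44: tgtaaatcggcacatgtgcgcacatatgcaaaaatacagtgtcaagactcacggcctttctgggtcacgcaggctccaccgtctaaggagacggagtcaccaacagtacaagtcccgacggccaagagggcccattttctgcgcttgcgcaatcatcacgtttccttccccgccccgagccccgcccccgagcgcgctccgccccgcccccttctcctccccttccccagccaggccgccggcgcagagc
ZBTB33: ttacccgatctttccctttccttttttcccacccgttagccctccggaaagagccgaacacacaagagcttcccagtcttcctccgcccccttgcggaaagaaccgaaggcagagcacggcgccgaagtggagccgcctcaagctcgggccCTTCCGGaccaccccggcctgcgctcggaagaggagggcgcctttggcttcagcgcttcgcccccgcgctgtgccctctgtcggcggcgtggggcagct
ZBTB24: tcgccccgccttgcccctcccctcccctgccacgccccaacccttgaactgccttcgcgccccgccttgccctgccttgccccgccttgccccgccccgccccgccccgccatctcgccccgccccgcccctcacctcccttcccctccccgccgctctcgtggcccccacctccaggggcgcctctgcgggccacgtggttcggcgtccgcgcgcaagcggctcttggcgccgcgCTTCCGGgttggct
ZBTB21: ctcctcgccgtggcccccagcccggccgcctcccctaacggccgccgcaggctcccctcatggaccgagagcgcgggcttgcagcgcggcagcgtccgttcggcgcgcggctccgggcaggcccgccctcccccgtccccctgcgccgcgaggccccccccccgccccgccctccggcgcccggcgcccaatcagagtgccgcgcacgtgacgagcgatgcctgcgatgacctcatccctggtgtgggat
ZBTB4: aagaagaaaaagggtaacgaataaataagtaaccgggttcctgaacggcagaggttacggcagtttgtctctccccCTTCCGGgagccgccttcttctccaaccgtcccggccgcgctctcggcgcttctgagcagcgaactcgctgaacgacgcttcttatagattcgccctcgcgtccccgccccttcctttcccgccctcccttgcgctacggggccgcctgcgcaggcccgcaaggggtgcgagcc
ZBTB11: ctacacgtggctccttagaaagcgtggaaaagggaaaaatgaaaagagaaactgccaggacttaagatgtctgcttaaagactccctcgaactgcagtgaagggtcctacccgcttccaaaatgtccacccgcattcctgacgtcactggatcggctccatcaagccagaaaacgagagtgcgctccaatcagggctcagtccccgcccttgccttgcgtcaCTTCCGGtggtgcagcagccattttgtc
In these windows the core ends 92 bases before the start of ZBTB33, 7 bases before that of ZBTB24, 167 bases before that of ZBTB4 and 21 bases before that of ZBTB11. The first pair of these genes rose and the second pair fell. The windows of ZBTB44 and ZBTB21 do not hold these letters. They had the largest rise and fall among members past the threshold with a single promoter entry. ZBTB20 and ZBTB38, with several entries, fell further than ZBTB21.

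Over windows of 300 bases (250 before and 50 after the start), 25 of the 57 members (43.9%) held the core in at least 1 promoter entry, against 16.9% of the 14425 measured genes with an entry. Members have 105 entries, of which 27 (25.7%) held it, against 13% of the 20403 entries of measured genes. Among genes with 1 entry the shares were 41.2% (14 of 34 members) and 15.6% (of 10605 genes), and the median count of CpG in the window was 25.5 in these members and 23 in these genes. Of members with 1 entry, 6 of 14 that rose, 2 of 4 that fell and 6 of 16 that did not pass held it. By gene, 45.8% of 24 members that rose, 44.4% of 9 that fell and 41.7% of 24 that did not pass held it, which are similar shares. Over all entries the shares were 30.0% of the 40 of members that rose, 13.8% of the 29 of members that fell and 30.6% of the 36 of members that did not pass. Entries of a gene are not independent, and most of the 29 belong to ZBTB20 and ZBTB38. No test was made of these differences. By family, 35.3% of 34 ZBTB, 52.9% of 17 ZSCAN and 66.7% of 6 ZKSCAN members with an entry held it, which was not tested either. The motif of Kaiso (TCCTGCNA, both strands, no overlap with the ETS core) stood in 6 of the 105 entries (5.71%, against 4.65% of entries of measured genes), and the CArG box of serum response factor in 1 (0.952%, against 1.28%). These are matches of letters in a window and show neither binding nor its absence.

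The ZBTB proteins that bind methylated CpG sites went different ways. ZBTB38, a repressor that recognises methylated DNA, had signals of 9.71 and 9.72 in the knockdown arrays and 11.75 in each control array. It averaged 9.72 ± 0.0042 in the knockdown arrays and 11.75 ± 0.00084 in the control arrays (SD, n = 2 each), a 4.09-fold fall (log2 change -2.03, SE 0.060, adjusted p = 5.25e-07). All 4 of its probe sets passed as lower, at log2 changes between -2.95 and -0.63. ZBTB4, which also represses the cell cycle inhibitor gene CDKN1A, had signals of 9.56 and 9.54 in the knockdown arrays and 10.14 and 10.25 in the control arrays. That is 1.56-fold lower (adjusted p = 3.13e-04), and 4 of its 5 probe sets passed as lower. ZBTB33, or Kaiso, which also binds unmethylated sites and partners with p120-catenin, moved the other way. Its signals were 9.89 and 9.73 in the knockdown arrays and 8.67 and 8.59 in the control arrays, a 2.26-fold rise (log2 change 1.18, SE 0.090, adjusted p = 3.51e-05), read from its only probe set. In all 3 genes the arrays of the groups were apart.

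Among regulators of cell lineage and development, ZBTB20 fell and ZBTB16 rose. ZBTB20, a repressor of alpha-fetoprotein in liver with a part in hippocampal development, fell most of all members. Its signals were 5.95 and 6.38 in the knockdown arrays, against 9.0 and 9.04 in the control arrays, which is 7.26-fold lower (log2 change -2.86, SE 0.15, adjusted p = 6.43e-06). Its second probe set fell by 2.36. ZBTB16, known as PLZF, a fusion partner of RARA in leukaemia and a director of innate-like lymphocytes, had signals of 6.44 and 6.97 in the knockdown arrays and 5.09 and 5.11 in the control arrays. Its rise of 3.04-fold (log2 change 1.6, SE 0.18, adjusted p = 2.37e-04) came with the largest gap between the knockdown arrays of any member, 0.54, and it has 1 probe set. ZBTB7A, a repressor of fetal globin genes, was at 7.0 and 6.83 in the knockdown arrays and at 7.70 and 7.90 in the control arrays (1.85-fold lower, adjusted p = 6.80e-04), with a mean over its probe sets of -0.56.

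Other lineage factors did not pass or depended on the probe set. ZBTB7B, or ThPOK, which sets the CD4 fate of T cells, was at 8.45 and 8.68 in the knockdown arrays and at 8.52 and 8.40 in the control arrays (log2 change 0.11, adjusted p = 0.461), and its groups overlapped. ZBTB7C, a close relative of ZBTB7A and ZBTB7B, was at 0.14, with 1 of 4 probe sets higher. ZBTB46, a marker of classical dendritic cells, stood at 0.24 (adjusted p = 0.246), but 1 of its other probe sets rose by 0.69, and its brightest passed at 0.45 without knockdown replicate 1. ZBTB1, needed for lymphoid development, stood at -0.016 (adjusted p = 0.910). Another ZBTB1 probe set had signals of 3.83 and 3.81 in the knockdown arrays and 5.47 and 5.32 in the control arrays, a fall of 1.58, and the mean of its probe sets passed at -0.54. ZBTB32, a lymphocyte repressor, was at 0.020. ZBTB18, also called RP58, a repressor in neuronal differentiation, rose 1.55-fold by its brightest probe set (9.20 and 9.10 in the knockdown arrays, 8.50 and 8.54 in the control arrays, adjusted p = 6.63e-04). The name of that probe set marks cross-hybridisation, and without such probe sets ZBTB18 stood at -0.086 and did not pass. ZBTB42, its close relative, was 1.37-fold higher (5.72 and 5.78 in the knockdown arrays, 5.33 and 5.26 in the control arrays).

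**Figure D2:**
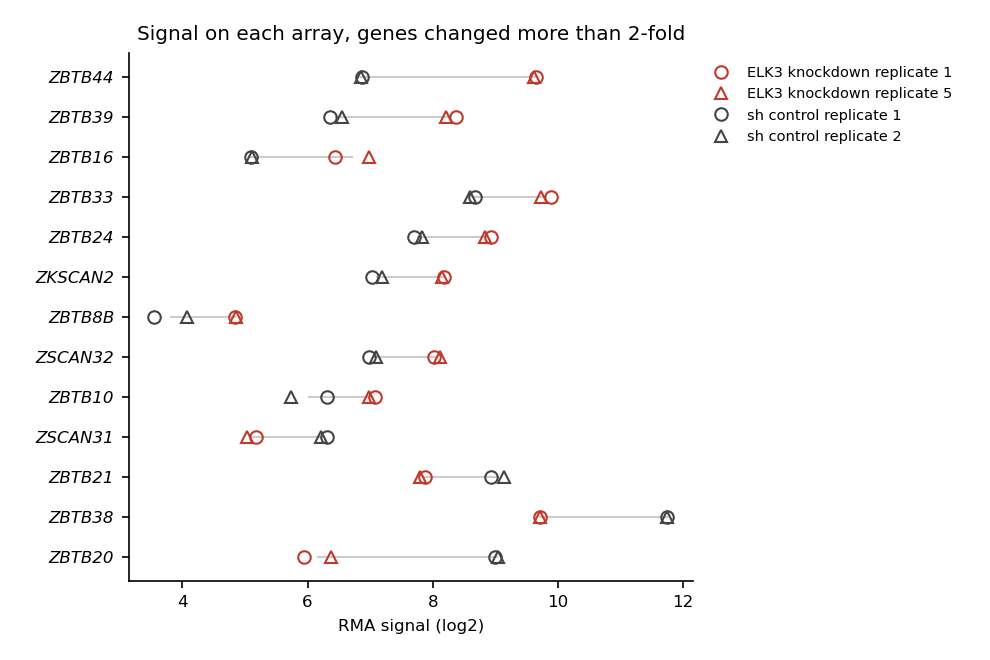
Signal on each array (RMA, log2, horizontal axis) of the 13 members that passed and changed more than 2-fold, with ELK3 knockdown arrays in red and sh control arrays in grey, and a line between the group means. The groups are apart in every row. The knockdown arrays lie farther from each other in ZBTB16 and ZBTB20, and the control arrays in ZBTB8B and ZBTB10.

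ZBTB17 fell, while ZBTB5 and ZBTB2 rose by less than 1.5-fold. ZBTB17, or MIZ1, activates CDKN1A and CDKN2B and is turned into a repressor when MYC joins it. Its signals were 8.25 and 8.36 in the knockdown arrays, against 9.30 and 9.28 in the control arrays, 1.98-fold lower (log2 change -0.98, SE 0.087, adjusted p = 7.36e-05). All 4 probe sets went down, 2 of them passed, and their mean stood at -0.62. ZBTB5, a repressor of CDKN1A, was 1.34-fold higher (adjusted p = 0.00634) and ZBTB2, a repressor in the ARF pathway, 1.24-fold higher (adjusted p = 0.0329). Both of these calls are fragile: that of ZBTB5 was lost without control replicate 1, that of ZBTB2 without any of knockdown replicate 1, control replicate 1 and control replicate 2, and both were lost with the mean of their probe sets. MYC, the partner of ZBTB17, fell by 1.63 on the log2 scale, while CDKN1A rose by 1.93 and CDKN2B by 0.58. MYC and CDKN2B are given here after their values were seen. The call of CDKN1A was lost without moderation of the variances. Whether these changes are linked to that of ZBTB17 was not tested.

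ZBTB24, ZBTB10, ZBTB48 and ZBTB40 were higher. ZBTB24, in which mutations cause an immunodeficiency with unstable centromeres, had signals of 8.94 and 8.83 in the knockdown arrays and 7.70 and 7.82 in the control arrays. It rose 2.18-fold (log2 change 1.12, SE 0.098, adjusted p = 7.0e-05), and all 3 of its probe sets passed as higher. ZBTB10, which binds variant telomere repeats and represses SP family genes, was at 7.07 and 6.98 in the knockdown arrays and at 6.30 and 5.73 in the control arrays (2.01-fold higher, adjusted p = 0.00332). ZBTB48, or TZAP, which trims long telomeres, rose 1.31-fold (8.84 and 8.81 in the knockdown arrays, 8.37 and 8.49 in the control arrays, adjusted p = 0.00950), a call lost without control replicate 1. ZBTB40 was 1.50-fold higher (9.39 and 9.16 in the knockdown arrays, 8.64 and 8.74 in the control arrays), with 2 of 4 probe sets past the threshold. The rise of ZBTB10 came with a gap of 0.57 between the control arrays, the largest of any member, and its other probe set stood at 0.36 and did not pass.

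The largest rises belonged to ZBTB44 and ZBTB39, whose functions are little known. ZBTB44 had signals of 9.65 and 9.61 in the knockdown arrays and 6.87 and 6.85 in the control arrays. It averaged 9.63 ± 0.027 in the knockdown arrays and 6.86 ± 0.012 in the control arrays (SD, n = 2 each), 6.83-fold higher (log2 change 2.77, SE 0.090, adjusted p = 7.76e-07). The probe set's name marks cross-hybridisation, and the other ZBTB44 probe set rose by 1.82. ZBTB39 was at 8.37 and 8.21 in the knockdown arrays and at 6.35 and 6.55 in the control arrays (3.58-fold higher, adjusted p = 1.69e-05). Its other probe sets passed at 0.63 and 0.35, and with the mean of all 3 the rise was 0.94. The pair of neighbouring genes ZBTB8B and ZBTB8A split: ZBTB8B rose 2.04-fold in the dim range (4.83 and 4.85 in the knockdown arrays, 3.55 and 4.07 in the control arrays), and ZBTB8A fell by 0.48 on the log2 scale (7.98 in each knockdown array, 8.48 and 8.42 in the control arrays).

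The remaining ZBTB rises were smaller. ZBTB26 was 1.78-fold higher, with signals of 6.26 and 6.32 in the knockdown arrays and 5.37 and 5.55 in the control arrays, and both of its probe sets passed. ZBTB34 rose 1.75-fold (8.40 and 8.12 in the knockdown arrays, 7.47 and 7.44 in the control arrays), ZBTB22 1.58-fold and ZBTB45 1.54-fold, each read from 1 probe set. These genes, too, have few known functions. On the lower side, ZBTB21 had signals of 7.87 and 7.80 in the knockdown arrays and 8.93 and 9.15 in the control arrays. It was 2.30-fold lower (log2 change -1.20, SE 0.11, adjusted p = 7.08e-05), and all 3 probe sets passed as lower. ZBTB47 (1.62-fold), ZBTB41 (1.50-fold) and ZBTB11 (1.30-fold), a gene needed for neutrophil development in zebrafish, were lower on both of their probe sets. The call of ZBTB11 by its brightest probe set was lost without control replicate 2, at -0.36.

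The other ZBTB genes did not pass by their brightest probe set. ZBTB37 stood at 0.27, and passed without control replicate 2 and after quantile normalization. ZBTB3 was at 0.20, ZBTB25 at 0.10, ZBTB49 at 0.09 and ZBTB14 at 0.032. On the other side of 0, ZBTB6 was at -0.055, ZBTB12 at -0.11 and ZBTB43 at -0.24. ZBTB43 passed as lower without knockdown replicate 1, and its neighbour ZBTB34 rose.

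ZSCAN genes that passed were higher in 9 of 19 cases and lower in 1, at a median log2 change of 0.17, where 29.5% of all genes passed as higher and 21.3% as lower. With dim genes left out 5 of 8 rose and 0 fell, beside 4474 and 2946 of 10388 genes. Without moderation 3 of 19 rose and 1 fell, beside 2926 and 2165 of 18132 genes. ZSCAN32 had signals of 8.01 and 8.11 in the knockdown arrays and 6.98 and 7.10 in the control arrays (2.04-fold higher, adjusted p = 1.61e-04). A second ZSCAN32 probe set rose by 1.15, the other pair stood at 0.14 and 0.22 and did not pass, and the mean was 0.64. ZSCAN16 was at 6.54 and 6.74 in the knockdown arrays and at 5.80 and 5.77 in the control arrays, 1.81-fold higher (adjusted p = 7.30e-04), or 0.33 on the log2 scale with its probe sets averaged. ZSCAN29 (1.76-fold) and ZSCAN22 (1.66-fold) were also apart between the groups, and averaging the probe sets of ZSCAN22 gave a log2 change of 0.39. ZSCAN12, ZSCAN5A, ZSCAN25 and ZSCAN2 rose between 1.28-fold and 1.62-fold. Of these, ZSCAN25 lost its call without control replicate 2, and ZSCAN2 without knockdown replicate 1 or control replicate 1 and under both other choices of probe set. ZSCAN31 was the member that fell, with signals of 5.18 and 5.03 in the knockdown arrays and 6.31 and 6.22 in the control arrays (2.24-fold lower, log2 change -1.16, SE 0.11, adjusted p = 1.12e-04).

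ZSCAN4 and ZSCAN10, known from early embryos and pluripotent stem cells in the mouse, did not pass. ZSCAN4, which lengthens telomeres in mouse embryonic stem cells, was at 4.49 and 4.53 in the knockdown arrays and at 4.50 and 4.70 in the control arrays (log2 change -0.087, adjusted p = 0.519). ZSCAN10 was at 5.59 and 5.61 in the knockdown arrays and at 5.83 and 5.75 in the control arrays (log2 change -0.19, adjusted p = 0.186). Both lie in the dim part of the range on all 4 arrays, and the RMA values come without detection calls. Of the others that did not pass, ZSCAN23, ZSCAN20 and ZSCAN26 lay between 0.011 and 0.17, and ZSCAN1, ZSCAN5B and ZSCAN30 between -0.19 and -0.056. ZSCAN5B stands beside its close relative ZSCAN5A, which rose.

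ZSCAN18, a gene silenced by promoter methylation in several cancers, gave the widest disagreement between probe sets. Its brightest probe set over the 4 arrays was at 8.41 and 8.01 in the knockdown arrays and at 7.26 and 7.47 in the control arrays, a 1.79-fold rise (log2 change 0.84, SE 0.16, adjusted p = 0.00312). Another probe set, brightest of the 5 in the knockdown arrays, had signals of 10.11 and 9.37 in the knockdown arrays and 4.93 and 5.06 in the control arrays. That is a log2 change of 4.74 (SE 0.22, adjusted p = 3.38e-06 over all probe sets), or 26.8-fold, chosen here after its values were seen. The remaining 3 stood at 0.62, 0.35 and 0.18, of which the first and second passed. All 5 probe sets moved the same way and differed in size. Whether they read different transcripts was not tested.

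Of the 7 ZKSCAN genes, which carry both SCAN and KRAB domains, 3 rose and 0 fell (limma), and 0 were lower at an unadjusted p under 0.05 as well. With the mean of probe sets 1 fell, and without moderation of the variances 1 rose. The median log2 change was 0.26. With 29.5% of all genes higher and 21.3% lower, counts among so few genes lie near the background. ZKSCAN2 had signals of 8.18 and 8.15 in the knockdown arrays and 7.02 and 7.19 in the control arrays, 2.08-fold higher (log2 change 1.06, SE 0.11, adjusted p = 1.46e-04). Its other 4 probe sets lay between -0.016 and 0.16 and did not pass, and the mean of all 5 gave 0.28. ZKSCAN4 was at 7.01 and 6.77 in the knockdown arrays and at 6.49 and 6.25 in the control arrays (log2 change 0.52, adjusted p = 0.0175). ZKSCAN5 was at 7.90 and 8.01 in the knockdown arrays and at 7.54 in each control array (log2 change 0.41, adjusted p = 0.0109). ZKSCAN4 and ZKSCAN5 lost their calls without control replicate 2, which left 1 gene that rose, and ZKSCAN5 also without control replicate 1. The mean of the ZKSCAN5 probe sets was 0.25. ZKSCAN3, a repressor of autophagy genes, stood at 0.24 (adjusted p = 0.124) and passed when its probe sets were averaged (0.31). ZKSCAN8 (0.26) passed at 0.43 without knockdown replicate 1. ZKSCAN1, whose transcript also forms an abundant circular RNA, was at 9.15 and 9.40 in the knockdown arrays and at 9.30 and 9.34 in the control arrays (log2 change -0.046, adjusted p = 0.744). ZKSCAN7 stood at -0.13 (adjusted p = 0.365) by its brightest probe set and passed as lower (-0.62) once cross-hybridising probe sets were dropped.

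**Figure D3:**
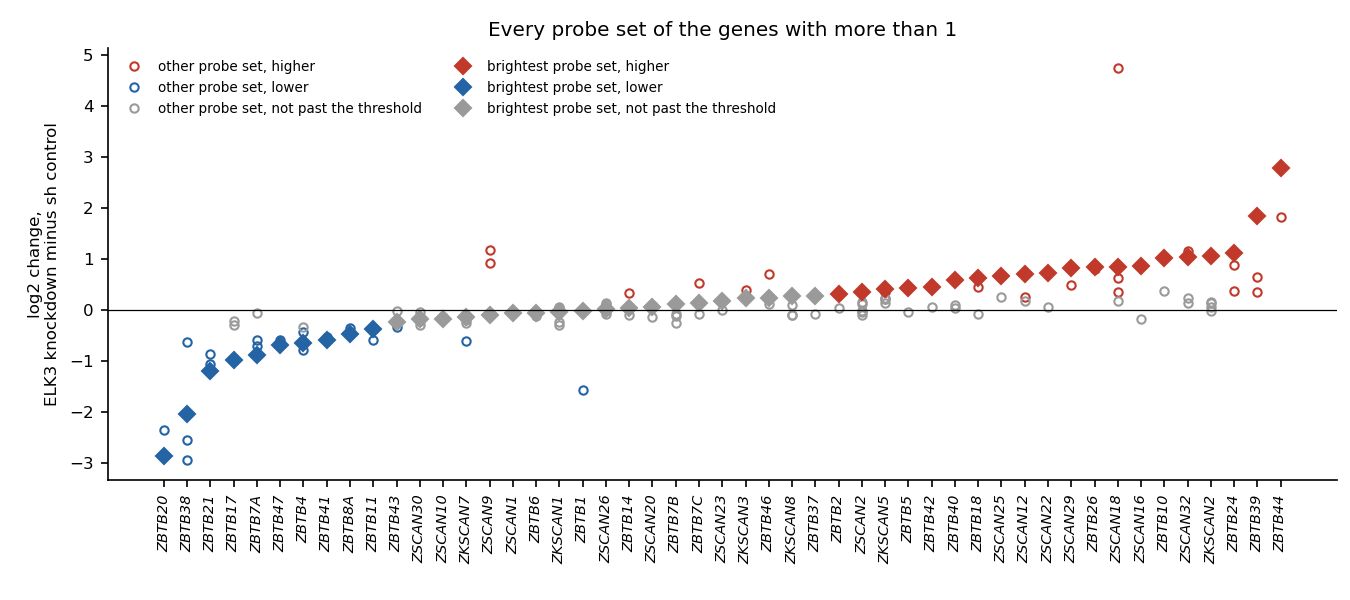
Log2 change (ELK3 knockdown minus sh control, vertical axis) of every probe set of the 49 members with more than 1, ordered by the brightest probe set, drawn as a filled diamond. Open circles are the other probe sets, red for higher, blue for lower and grey for not past the threshold over all probe sets. The circle at 4.74 belongs to ZSCAN18, the pair at 1.18 and 0.91 to ZSCAN9 and the circle at -1.58 to ZBTB1.

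Of the 66 members, 17 had 1 probe set and 49 had several, and in 34 of the 49 all probe sets moved the same way. All probe sets went down in 10 of the 10 lower members with several, and all passed in 7. Among the 20 higher members with several, all went up in 15 and all passed in 5. No member had probe sets past the threshold in both directions. In 8 members the brightest probe set did not pass while another did, namely ZBTB1, ZBTB14, ZBTB43, ZBTB46, ZBTB7C, ZKSCAN3, ZKSCAN7 and ZSCAN9. ZSCAN9 stood at -0.094 by its brightest probe set (8.10 and 7.90 in the knockdown arrays, 8.06 and 8.13 in the control arrays). Its other 2 rose by 1.18 and 0.91, and the first of these was at 7.28 and 7.42 in the knockdown arrays and at 6.24 and 6.10 in the control arrays.

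The knockdown arrays differed from each other slightly more than the control arrays did. Over the members the median gap between arrays of a group was 0.13 for the knockdown and 0.098 for the control, against 0.11 and 0.083 over all genes. The knockdown gap was the larger in 39 of 66 members. Besides ZBTB16, it was widest in ZSCAN29 (0.44, higher in replicate 1), ZBTB20 (0.43, higher in replicate 5), ZBTB46 (0.42) and ZSCAN18 (0.40). In ZBTB16, ZBTB20, ZSCAN29 and ZSCAN18 the gap was smaller than the change between the groups.

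By the gene order of GRCh38.p14, 9 pairs of members stand side by side among measured genes. In 8 of these pairs 1 gene passed and the other did not, and the remaining pair was ZBTB8B and ZBTB8A, which went opposite ways. A cluster on chromosome 6 holds 9 ZSCAN and ZKSCAN genes within a run of 13 measured genes, and 3 of these rose, 1 fell and 5 did not pass, at log2 changes between -1.16 and 0.85. On chromosome 3, which holds 5 members, ZBTB47, ZBTB11, ZBTB20 and ZBTB38 fell and 0 rose, so that 4 of the 11 lower members lie there. This chromosome is named after its values were seen. The share of lower genes among all its measured genes is not given here, so no regional change can be read from this count. The fifth, ZKSCAN7, did not pass. In the chromosome 6 run, ZSCAN31, the member that fell, stands beside ZKSCAN3 at 0.24, which did not pass. Among the other genes next to a member that rose, 18 of 50 were higher (36.0%) and 8 lower, near the 29.5% and 21.3% of all genes. Next to a member that fell, 4 of 20 were higher and 2 lower, and next to one that did not pass, 15 of 44 were higher and 6 lower.

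Of 8 BTB zinc finger genes under other names, 2 rose and 4 fell, beside 29.5% and 21.3% of all genes. HIC2 was at 10.45 and 10.47 in the knockdown arrays and at 7.35 and 7.30 in the control arrays (log2 change 3.13, adjusted p = 3.39e-07), or 1.71 when its probe sets were averaged. PATZ1 rose by 1.73, or 0.53 once cross-hybridising probe sets were dropped. BCL6, the repressor of germinal centre B cells, fell by 1.30 and HIC1, a tumour suppressor, by 1.08 (by 0.41 with the mean). Of 22 SCAN domain genes under other names, 12 rose and 0 fell (limma; 1 was lower at an unadjusted p under 0.05), at a median log2 change of 0.37, read against the same shares of all genes. The number that fell was 3 without knockdown replicate 5. ZNF165, a cancer-testis gene, rose by 2.18, ZNF263 by 1.42, ZNF174 by 1.07 and ZNF274 by 1.03. ZNF274, which recruits a histone methyltransferase to other zinc finger genes, missed the threshold (0.23) once cross-hybridising probe sets were dropped.

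Among the corepressors these proteins call on, more genes passed as higher than as lower. Of 13 BTB corepressors measured, 9 rose and 1 fell, at a median log2 change of 0.51, where 29.5% and 21.3% of all genes passed. All 13 stayed when dim genes were left out, where 4474 of 10388 genes passed as higher and 2946 as lower. BCOR, a corepressor named for BCL6, was at 10.56 and 10.77 in the knockdown arrays and at 8.19 and 7.99 in the control arrays (log2 change 2.58, adjusted p = 2.18e-06), and its relative BCORL1 rose by 1.76. The histone deacetylase genes HDAC2 and HDAC1 rose by 1.02 and 0.99, the second by 0.61 with its probe sets averaged. TBL1X, a subunit of the NCOR complex, was the gene that fell (-0.89), and the number that fell was 2 without knockdown replicate 5 or with either other choice of probe set. Of 15 KRAB corepressors, 8 rose and 4 fell, at a median of 0.30, and all 15 stayed when dim genes were left out. TRIM28, the protein that KRAB domains bind, was at 12.18 and 12.03 in the knockdown arrays and at 11.10 and 11.15 in the control arrays (log2 change 0.98, adjusted p = 2.24e-05). SETDB1, the methyltransferase it brings to chromatin, rose by 1.45 and MPHOSPH8 by 0.96, while CHD3, a remodeller bound by TRIM28, fell by 0.88. Dropping cross-hybridising probe sets left 13 KRAB corepressors, of which 5 rose and 4 fell. These lists were drawn up with results of the data known. They are described by counts, medians and named genes, and no list was tested as a set.

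**Figure D4:**
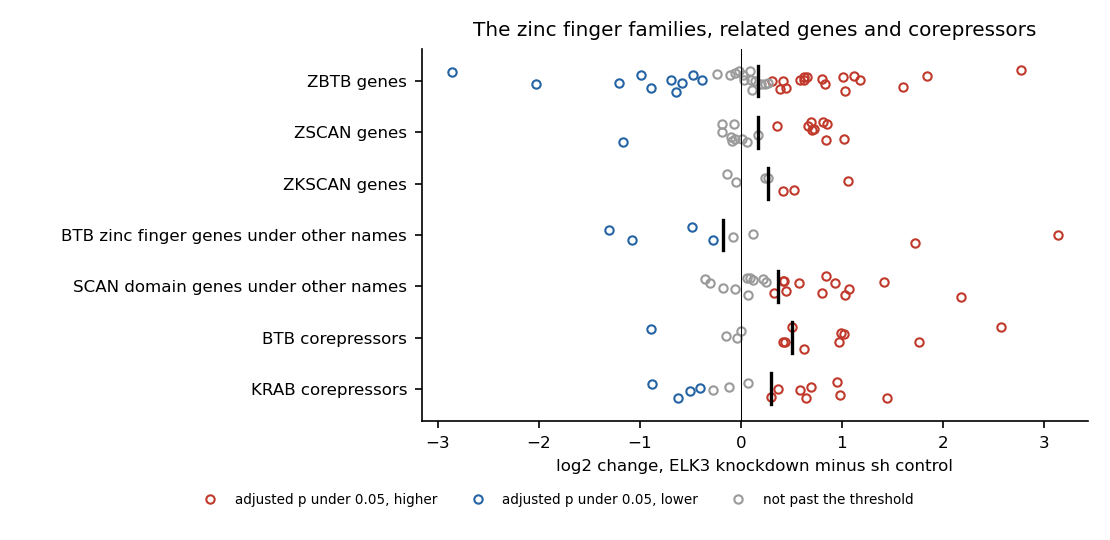
Log2 change of each gene (ELK3 knockdown minus sh control, horizontal axis) in the 3 zinc finger families, in related genes under other names and in their corepressors, with a black bar at the median of each group. Red circles passed as higher, blue as lower and grey did not pass. Vertical scatter within a row has no meaning. The medians run from -0.18 for BTB zinc finger genes under other names to 0.51 for BTB corepressors.

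Of 13 partners and reported targets measured, 7 rose and 4 fell, and 3 rose without moderation of the variances. SNAI2, which encodes the mesenchymal repressor SLUG, fell by 6.56. MDM2, an oncogenic ubiquitin ligase gene, rose by 2.12, NOTCH1 by 1.99 and CDKN1A by 1.93. Averaging its probe sets put NOTCH1 at 0.84. Of the SP family genes, which ZBTB10 is known to repress, SP1 and SP4 rose by 0.51 and 1.08 and SP3 fell by 0.46, while ZBTB10 itself rose. These SP genes are given after their values were seen, and a link to ZBTB10 was not tested. This list mixes activated and repressed genes, so its counts carry no single direction.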

How the data were processed

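The deposited table holds log2 signal values of 49293 probe sets on 4 one-colour arrays, which the authors had normalized (RMA is the method named by the submitters' processing notes, with no version). There are no detection calls, and precision is limited by the number of arrays. Gene names came from GEO's annotation of the platform, in which 44988 have 1 gene symbol, 1832 several and 2473 are not listed; none with several was used. Each of 18132 genes was read from its probe set of highest mean signal on the 4 arrays.

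The comparison was fitted in limma 3.58.1 under R 4.3.3 (lmFit, eBayes with intensity trend, 2 residual and 4.83 prior degrees of freedom, two-sided, Benjamini-Hochberg over all genes). The fit was tested on simulated data in which few genes changed. Far more genes passed here, so the simulation cannot vouch for these calls. An exact permutation test of 2 arrays against 2 cannot give a p below 0.333. Probe sets were also fitted singly. Promoters, gene order and other gene lists were described by counts, medians or named genes, without a test of a set.

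The members and lists were chosen with earlier results of these data known. Named are the 10 largest ZBTB and 5 largest ZSCAN changes each way past the threshold, all ZKSCAN genes, 16 members always given, and up to 4 genes of each further list; others were named after their values were seen. Alternatives tried were moderation, trend, probe set choice, a filter on dim genes, scaling, thresholds and leaving out each array. Figures were drawn with matplotlib 3.10.9.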

Additional observations from a re-analysis of the deposited data

How the results depend on the processing

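Of 467 recomputed values for the 40 members named by rule, 436 kept their direction and their side of the threshold, 17 lost and 6 gained a call, and 8 turned in sign. Of 261 for 22 other genes, 258 kept both and 3 lost a call. Members outside that rule, such as ZBTB2, ZBTB5 and ZSCAN2, are not in these numbers. Against 29 higher and 11 lower members, 18 and 10 of 40 passed with dim genes left out, beside 4474 and 2946 of 10388 genes. Without moderation 12 and 8 of 66 passed, beside 2926 and 2165 of 18132 genes. In both settings the share of higher members was near that of all genes. When every probe set of a gene had to pass, 14 and 8 members passed, and when at least 1 had to, 34 and 14. Both of these alternatives were chosen after seeing the data, and the shares of all genes under them are not given here. Leaving out each array in turn gave 24 to 29 higher and 10 to 12 lower members. Without moderation 20 of the 40 calls were lost, among them those of ZBTB16, ZBTB10, ZBTB7A and ZSCAN18. Over all genes, 2926 passed as higher and 2165 as lower without moderation, and 3469 and 2284 with the selection of the series' design text, against 5354 and 3865; leaving out each array gave 4495 to 5614 and 3088 to 4061. The signs that turned were those of ZBTB18 (-0.086 with cross-hybridising probe sets left out), ZBTB7B (-0.088 with the mean of probe sets, -0.26 with cross-hybridising ones left out, -0.0052 to 0.22 with an array left out), ZBTB1 (-0.095 to 0.062 with an array left out, and 0.035 without control replicate 1), ZKSCAN1 (-0.17 to 0.076) and ZSCAN4 (-0.18 to 0.011). Of these, ZBTB18 alone had passed. The cause of these moves was not tested beyond what each alternative changes. Scaling by each array's median kept all 40 calls, and quantile normalization kept them and added ZBTB37. No paired analysis was possible because the groups share fewer than 2 replicate numbers.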
